A study of Mus musculus with 12 samples.

Results

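The nuclear receptors examined here were 10 of the 43278 gene symbols in the table, chosen by name. They were the PPARs Pparg, Ppard and Ppara, the RXRs Rxra and Rxrb, the LXRs Nr1h2 (LXRβ) and Nr1h3 (LXRα), and the NR4A receptors Nr4a1 (NUR77), Nr4a2 (NURR1) and Nr4a3 (NOR1). Poly(A) RNA was sequenced from peritoneal macrophages (PMφs) in 12 libraries, 3 in each of 4 groups. Every group consisted of wild-type C57BL/6J PMφs from mice of 8 to 12 weeks, elicited with 4% thioglycolate, lavaged after 4 d and kept as adherent cells after 18 h. Control PMφs received neither agent, oxLDL PMφs were cultured with 100 µg/ml human oxidized low-density lipoprotein for 24 h, LPS PMφs received 10 ng/ml LPS, and oxLDL+LPS PMφs received oxLDL and then LPS. How long LPS was present before RNA was taken is not given for these libraries in the sources used here. Each pool took cells from up to 10 mice and was divided among the groups, so a library is a culture of a pool and not a single animal.

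PPARs bind fatty acids and their oxidized derivatives, and LXRs bind oxysterols. Each forms a heterodimer with an RXR and switches on genes of lipid uptake, storage, oxidation and efflux, and in macrophages ligand-bound PPARγ and LXRs also restrain inflammatory genes. NR4A receptors are immediate early genes that need no known ligand and are induced by signals acting on factors such as CREB. OxLDL carries fatty acid and sterol ligands of these receptors, and LPS acts through TLR4, so the design asks what each agent, and lipid loading before LPS, did to the receptor genes.

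Values are normalized counts, meaning that the authors' whole-number values had been scaled by 1 factor per library. They summed to 17152972 to 17709731 per control library, 17440329 to 17444102 per oxLDL library, 22590678 to 26384551 per LPS library and 22071853 to 23346854 per oxLDL+LPS library. The spacing of the values implied 16725738 to 26179883 reads on genes per library. Macrophage markers, 7 genes including Lyz2 and Cd68, summed to 230743 to 324472 per library, and Emr1 (log2 difference 1.53), Fcgr1 (2.81) and Mertk (1.31) of them were called higher for LPS against control. The 4 markers of large peritoneal macrophages summed to 322 to 528 in control, 330 to 439 in oxLDL, 476 to 843 in LPS and 362 to 513 in oxLDL+LPS libraries. Of these, Selp (1.06) and Timd4 were called higher for LPS against control, Timd4 passing the filter on low values only through LPS-treated libraries. The 4 T cell markers summed to at most 5 and the 4 adipocyte markers, Adipoq and Lep among them, to at most 3. The 4 neutrophil markers summed to 31 to 49 without LPS and to 79 to 257 with it, nearly all of it S100a8, while Ly6g was at 0 in every library. The 4 eosinophil markers went from 186 to 385 without LPS to 56 to 124 with it, nearly all of it Siglecf, while Prg2 was at 0. Markers of mesothelial cells and fibroblasts, 6 genes, ranged from 4093 to 25883. None of them was called in either LPS comparison without the replicate block, and with it Upk3b was called lower for oxLDL+LPS against oxLDL (-0.91, adjusted p = 0.0026 by limma). For oxLDL+LPS against LPS no marker of any list was called without the block. With it 1 marker each of macrophages, large peritoneal macrophages, eosinophils and mesothelial cells with fibroblasts was called lower, and 1 of neutrophils higher. Of all genes, 8.74% were called lower and 4.42% higher there. All 6 mesothelial and fibroblast markers had negative differences in that comparison. The pools also differed in 4 Y-linked genes, although the methods describe litters of males and females. These genes summed to 1004 to 3138 in the libraries of replicate number 1, 0 to 2 in those of number 2 and 1620 to 1783 in those of number 3. The libraries of number 1 thus differed among themselves. That each pool was divided evenly among the groups is taken from the methods and is not shown by these values. The part of these differences in the results was not tested. In bulk RNA, fewer cells that express a gene and less of its RNA per cell cannot be told apart.

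LPS moved 7 of the 9 receptor genes that could be tested. OxLDL moved none of them past the threshold without the replicate block, in fits that called no gene at all for oxLDL. Genes with a value of 10 or more in 3 or more of the compared libraries were tested, and a gene was called at a Benjamini-Hochberg adjusted p under 0.1 in limma, fitted to log2(normalized count + 1). Against control PMφs, LPS PMφs had 7 of the 9 tested receptor genes called, 4 higher and 3 lower, where 61.7% of all 13023 tested genes were called, 31.4% higher and 30.3% lower. Against oxLDL PMφs, oxLDL+LPS PMφs also had 7 of 9 called, 4 higher and 3 lower, where 54.5% of 12900 genes were called, 28.2% higher and 26.3% lower. In the former comparison 8 of the 9 had groups that did not overlap, 4 higher and 4 lower (32.1% and 31.1% of all genes), and in the latter 6 of the 9, 3 higher and 3 lower (29.6% and 28% of all genes). The counts called and the counts without overlap both include Nr4a3 among the higher genes. This gene passed the filter only through LPS-treated libraries. Without Nr4a3, 6 of 8 were called in each comparison, 3 higher and 3 lower. These shares are read against a background in which LPS moved most genes. The scaling bears on direction: with every library set to the same total, the median gene moved by -0.48 on the log2 scale under LPS and by -0.40 under LPS after oxLDL, and the higher genes made up 23.5% and 23.7% of the called genes in place of 50.9% and 51.7%. With the 75th percentile made equal, those shares were 34.4% and 33.5%.

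No receptor gene was called for oxLDL, with or without LPS, in the fits without the block. As these fits called no gene for oxLDL, they do not set the receptor genes apart from others. The paper, using DESeq2 with an adjusted p under 0.1, reported significant induction of Cd36 by oxLDL. Against control, oxLDL PMφs had 0 of 8 called by limma, with 0 at an unadjusted p under 0.05, where 0% of 12751 genes were called and 2.99% had an unadjusted p under 0.05. OxLDL+LPS PMφs against LPS PMφs gave 0 of 9 called, with 2 at an unadjusted p under 0.05, where 0% of 12786 genes were called and 6.96% had such a p. Groups that did not overlap were seen for Pparg alone in the former comparison (lower; 3.79% of all genes were higher and 3.91% lower without overlap) and for Rxra alone in the latter (higher; 6.18% of all genes were higher and 6.39% lower). The methods describe pools divided among the groups, so the replicate numbers were taken to mark shared pools. Each comparison was therefore also fitted with the number as a block. The blocked fits called 9 of 9 receptor genes for LPS against control, 5 higher and 4 lower (68.7% of all genes, 34.6% higher and 34.1% lower). For oxLDL+LPS against oxLDL they called 7 of 9, 4 higher and 3 lower (63.4%, 32% higher and 31.4% lower). Both counts include Nr4a3, which passed the filter only through LPS-treated libraries. For oxLDL against control the blocked fit called 0 of 8 (4.71%, 1.8% higher and 2.92% lower). For oxLDL+LPS against LPS it called 2 of 9, 1 higher and 1 lower (13.2%, 4.42% higher and 8.74% lower). The comparisons share their control libraries in pairs, so their results are not independent of each other.

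**Figure D1:**
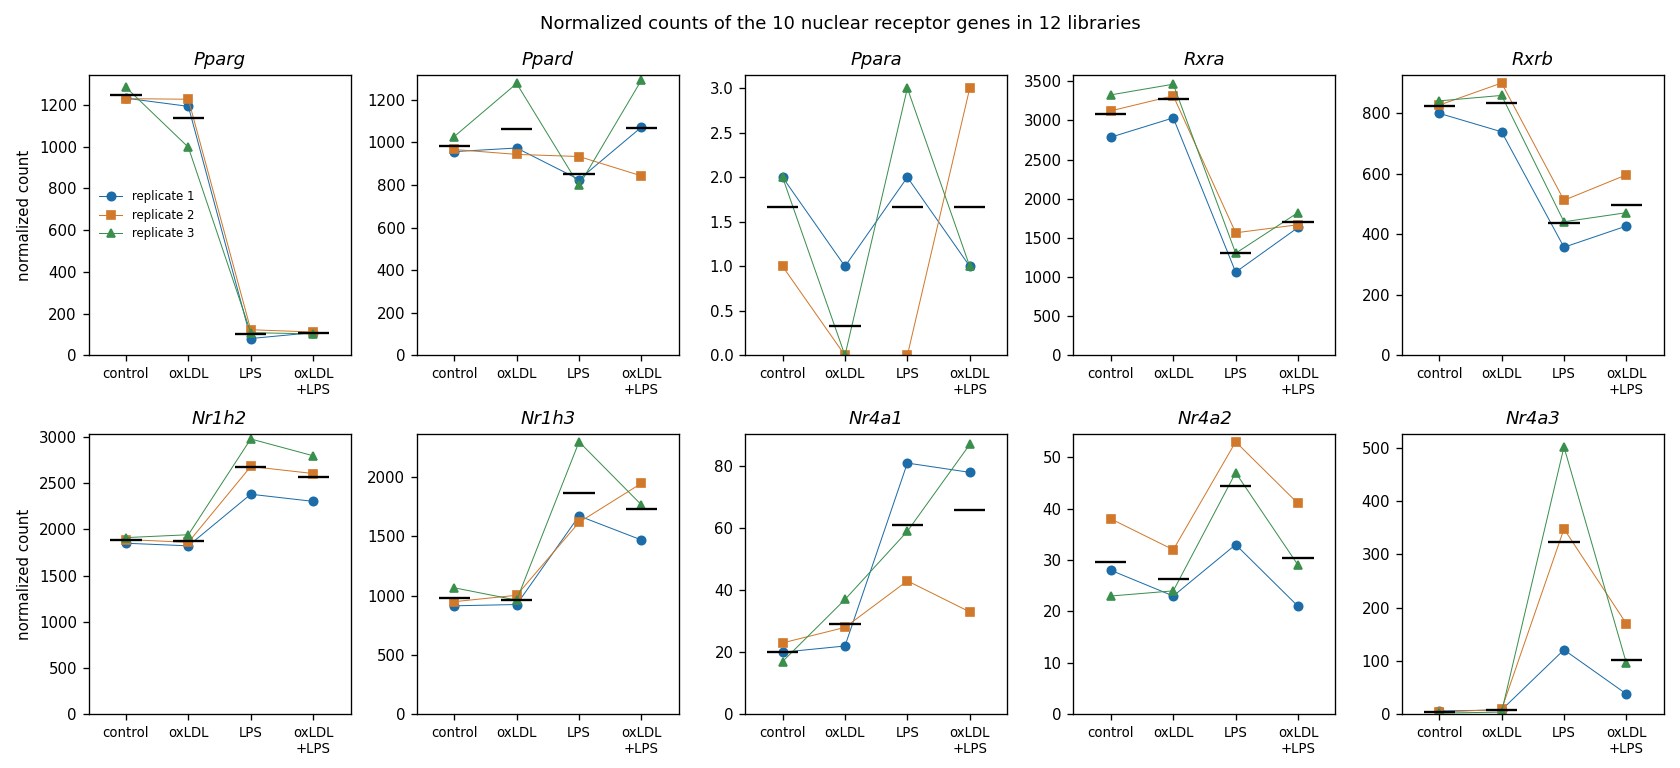
Normalized counts (vertical axis, linear from 0, own scale per gene) of the 10 receptor genes in the 4 groups, with a symbol and thin line per replicate number and a black bar at the mean of 3 libraries. Pparg sits at 997 to 1284 in the 6 libraries without LPS and at 81 to 123 in the 6 with it, and Nr4a3 goes the other way.

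**Figure D2:**
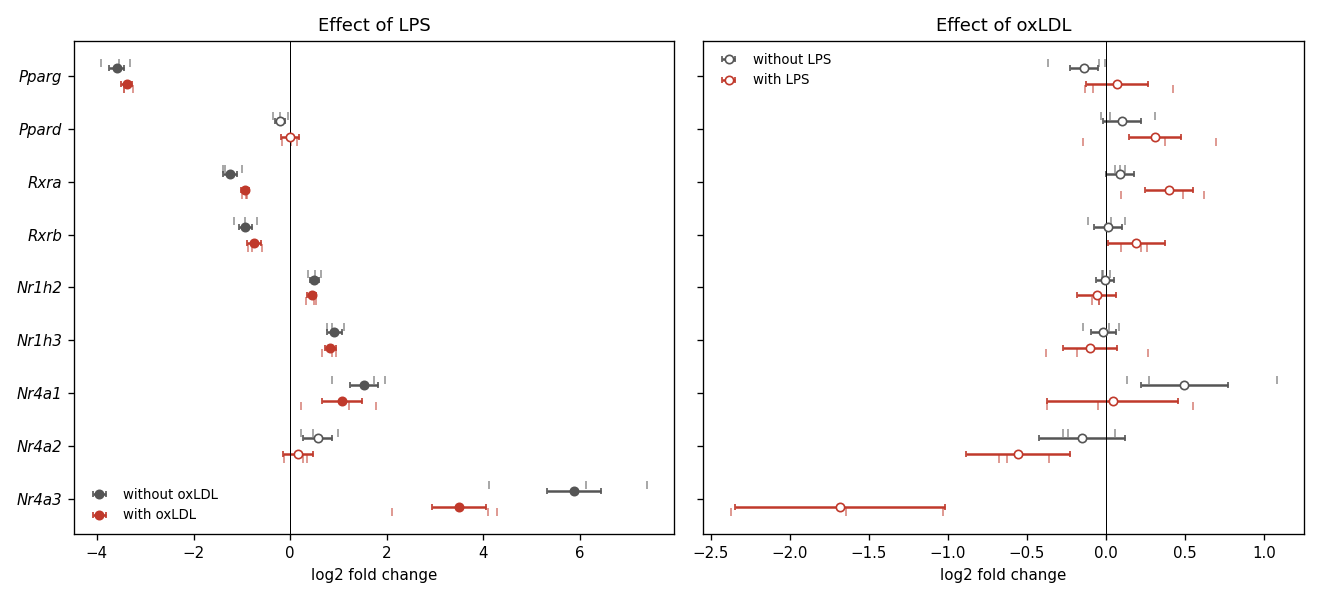
Log2 fold changes (horizontal axis) of the 9 tested receptor genes, LPS effects on the left and oxLDL effects on the right, with standard errors from limma, ticks for the 3 replicate numbers and filled points for genes called without the block. On the left 7 genes are filled in each color, and on the right none is. Nr4a3, filled on the left, passed the filter there only through LPS-treated libraries.

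Levels of different genes were compared per kb of merged exon. In control PMφs, Rxra (564 ± 49.9, SD, n = 3) and Nr1h2 (561 ± 9.24) stood highest and did not differ beyond their spread. Per kb of the longest transcript instead, Nr1h2 stood at 942 and Rxra at 628, so this tie rests on the length used. The order below is that per kb of merged exon. Pparg followed at 423 ± 10.4 and Nr1h3 at 388 ± 31.7, then Rxrb at 207 ± 5.25 and Ppard at 131 ± 5.11. The NR4A genes were far lower, with Nr4a2 at 7.31 ± 1.88, Nr4a1 at 5.70 ± 0.85 and Nr4a3 at 0.668 ± 0.33, and Ppara stood last at 0.434 ± 0.15. Neighbours in the lower part of this order, Nr4a2 with Nr4a1 and Nr4a3 with Ppara, lay within 1 SD of each other. In LPS PMφs the order began with Nr1h2 (799 ± 89.1) and Nr1h3 (740 ± 150), whose spreads overlapped, then Rxra at 240 on average. Per kb of the longest transcript, Nr1h2 stood at 1340 and Nr1h3 at 938 in LPS PMφs. Pparg had dropped to place 7, at 35.3 ± 7.24, behind Nr4a3 at 54.1 ± 32.0, whose spread took in the Pparg level. The order in oxLDL PMφs matched that in control PMφs except that Nr4a1 stood above Nr4a2.

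**Figure D3:**
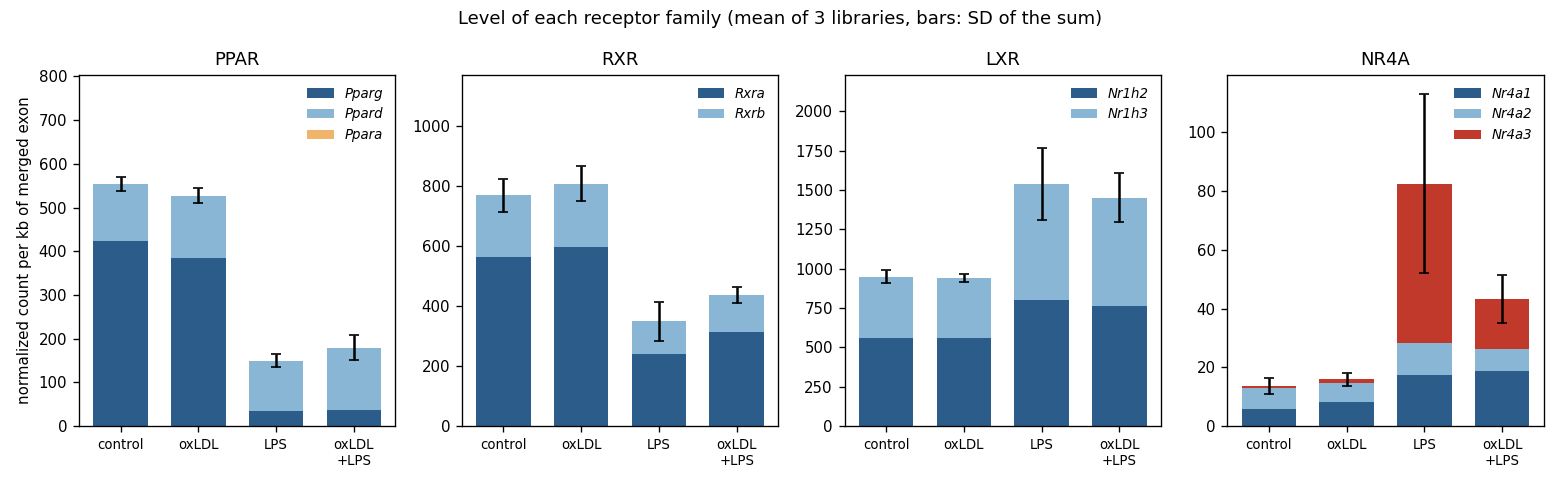
Summed level of each receptor family (vertical axis, normalized count per kb of merged exon, own scale per family) as the mean of 3 libraries per group, stacked by gene, with the SD of the sum. Pparg makes up 76.3% of the PPAR bar in control and 23.5% in LPS PMφs, and Nr4a3 4.83% and 61.2% of the NR4A bar.

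Pparg encodes the fatty acid receptor PPARγ (GRCm38 chromosome 6, 115360951 to 115490399, plus strand). It fell the most of the receptor genes under LPS. Control libraries held 1232, 1230 and 1284 normalized counts, in the order of replicate numbers 1 to 3, and LPS libraries 81, 123 and 109. OxLDL libraries held 1193, 1227 and 997, and oxLDL+LPS libraries 109, 112 and 103. All LPS-treated libraries were thus far below all others, with or without oxLDL. By limma, LPS against control gave a log2 difference of -3.59 with a standard error of 0.16 (adjusted p = 1.63e-06), the mean falling to 8.36% of control. OxLDL+LPS against oxLDL gave -3.38 (standard error 0.12, adjusted p = 1.18e-06), a mean of 9.48% of that in oxLDL PMφs. OxLDL alone left Pparg at -0.14 (95% interval -0.35 to 0.07, adjusted p = 1), although every oxLDL library lay below every control library. In the presence of LPS the oxLDL difference was 0.07 (95% interval -0.39 to 0.53, adjusted p = 0.961) and the groups overlapped.

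Ppard, encoding PPARδ, a fatty acid receptor linked to fatty acid oxidation, lies on chromosome 17 from 28232700 to 28301474, plus strand. Its values were 957, 967 and 1028 in control, 974, 944 and 1277 in oxLDL, 826, 934 and 798 in LPS and 1072, 843 and 1293 in oxLDL+LPS libraries. The LPS libraries lay just under the control libraries without overlap, as 31.1% of all tested genes did in that direction, and the other groups overlapped. LPS against control gave -0.21 (standard error 0.10, adjusted p = 0.101), which is not called, and the blocked fit gave an adjusted p of 0.0956, which is. With every library set to the same total the difference was -0.69 (adjusted p = 0.00102), and without LPS replicate 2 it was -0.28 (adjusted p = 0.0438). On leaving out libraries, with the block kept or not, it ran from -0.29 to -0.13, with an adjusted p of up to 0.460 by limma. After oxLDL the LPS difference was -0.0023 (95% interval -0.43 to 0.42, adjusted p = 0.993). The interaction of oxLDL and LPS for Ppard was 0.21 (standard error 0.22, adjusted p = 1), so the LPS effects were not shown to differ.

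Ppara, encoding the fasting-state receptor of liver on chromosome 15 from 85734983 to 85802819, plus strand, was at 0 to 3 normalized counts in all 12 libraries and was not tested. Per kb of exon, Pparg made up 76.3% of PPAR transcript in control PMφs (76.0% to 76.5% over the libraries) and 23.5% in LPS PMφs (19.9% to 25.7%). Ppard went from 23.6% to 76.1% of the PPAR total.

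Of 16 listed PPAR target genes, 13 were tested. LPS raised 2 and lowered 7 of them (1 and 10 with the same total per library), beside 31.4% and 30.3% of all genes, with a median log2 fold change of -0.41 beside -0.00097 over all genes. Fabp4, a fatty acid carrier, fell by 2.24 (standard error 0.13, adjusted p = 7.25e-06), and Plin2, a lipid droplet coat protein, fell by 1.11 (standard error 0.10, adjusted p = 6.46e-05). Acsl1, which activates long-chain fatty acids, rose by 2.48 (standard error 0.08, adjusted p = 4.32e-07). After oxLDL, LPS raised 1 and lowered 7 (1 and 10 with the same total per library), beside 28.2% and 26.3% of all genes, Acsl1 by 2.46 upward and Fabp4 and Plin2 by -2.45 and -1.09. OxLDL against control had 0 of 13 called by limma without the block, with 5 at an unadjusted p under 0.05, and 7 called with it, all higher, where 1.8% of all genes were called higher with it. They included Angptl4 (1.34, blocked standard error 0.12), Cd36 (0.93, 0.11) and Cpt1a (0.45, 0.04). OxLDL+LPS against LPS had 0 of 13 called without the block, with 3 at an unadjusted p under 0.05, and 5 with it, all higher, beside 4.42% of all genes, Cd36 (0.98, blocked standard error 0.15) and Cpt1a (0.79, 0.07) among them. The blocked count for oxLDL was 4, 3 and 8 without replicate numbers 1, 2 and 3, and that for oxLDL+LPS against LPS was 1, 6 and 0.

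**Figure D4:**
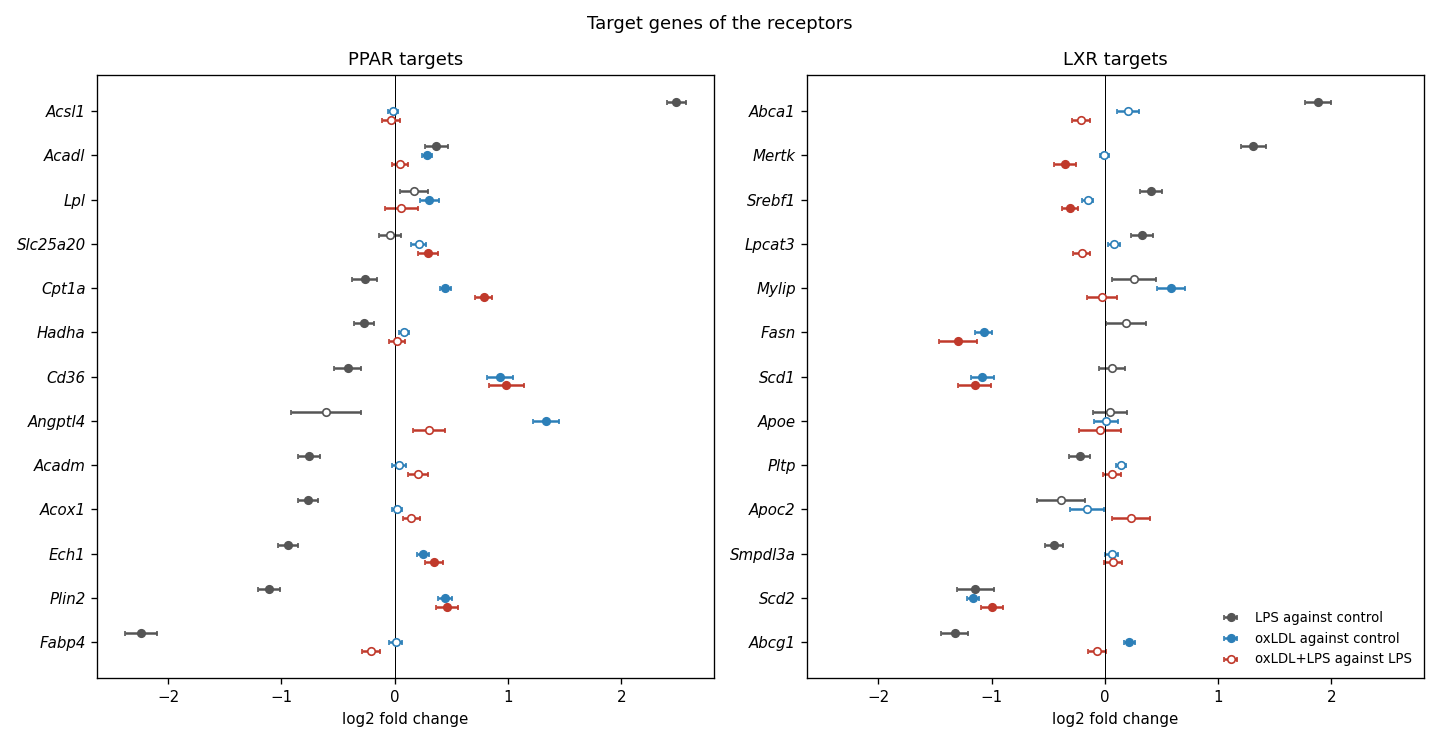
Log2 fold changes (horizontal axis) of the 13 tested PPAR target genes (left) and the 13 tested LXR target genes (right) in 3 comparisons, with standard errors from limma with the replicate block and filled points where the blocked fit called the gene. Most PPAR targets lie left of 0 under LPS (grey) while the filled points of both oxLDL comparisons (blue, red) lie right of 0, and Scd1, Scd2 and Fasn lie left of 0 in both oxLDL comparisons.

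Rxra and Rxrb encode the common dimer partners of PPARs and LXRs. Rxra, on chromosome 2 from 27676440 to 27762957, plus strand, had 2786, 3122 and 3326 normalized counts in control and 1063, 1565 and 1304 in LPS libraries. The values were 3032, 3314 and 3462 in oxLDL and 1633, 1668 and 1824 in oxLDL+LPS libraries. The 6 LPS-treated libraries all lay below the 6 others, and the oxLDL+LPS libraries all lay above the LPS libraries. Under LPS the log2 difference was -1.25 with a standard error of 0.15 (adjusted p = 0.000269) without oxLDL, and -0.94 with a standard error of 0.09 (adjusted p = 0.000126) with it.

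OxLDL+LPS PMφs had a mean Rxra value at 130.3% of that in LPS PMφs. The log2 difference was 0.40, with an adjusted p of 0.705 without the block and 0.0478 with it (blocked standard error 0.10). The differences in replicate numbers 1, 2 and 3 were 0.62, 0.09 and 0.48. The blocked adjusted p was 0.360 without replicate number 1 and 0.409 without number 3, where the call was lost, and the gene was called without number 2. Over all genes the blocked fit of this comparison called 71 without number 1, 2945 without number 2 and 0 without number 3. OxLDL without LPS gave 0.09 (95% interval -0.11 to 0.29, adjusted p = 1), and the interaction was 0.31 (standard error 0.18, adjusted p = 1).

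Rxrb lies on chromosome 17 from 34031812 to 34038399, plus strand. It went from 799, 826 and 840 in control to 357, 512 and 441 in LPS libraries, and from 738, 899 and 858 in oxLDL to 427, 596 and 471 in oxLDL+LPS libraries. No library with LPS reached any library without it. The log2 differences were -0.93 with a standard error of 0.14 (adjusted p = 0.000879) and -0.75 with a standard error of 0.15 (adjusted p = 0.00458). The oxLDL differences of 0.013 without and 0.19 with LPS were not called. Rxra made up 73.1% of the summed Rxra and Rxrb transcript per kb in control and 68.6% in LPS PMφs.

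The LXR genes rose under LPS, Nr1h2 only under the deposited and the 75th percentile scalings. Nr1h3, encoding LXRα, the LXR form that is strong in macrophages and liver, lies on chromosome 2 from 91184061 to 91202834, minus strand. Its values were 914, 949 and 1066 in control, 925, 1003 and 962 in oxLDL, 1672, 1618 and 2297 in LPS and 1469, 1947 and 1765 in oxLDL+LPS libraries. Every LPS-treated library lay above every other. LPS against control gave a log2 difference of 0.92 with a standard error of 0.15 (adjusted p = 0.00127), and oxLDL+LPS against oxLDL gave 0.83 (standard error 0.11, adjusted p = 0.000884). Gm13783 overlaps 34 of its 2515 exon bases on the same strand and was at 0 to 3 in all libraries.

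Nr1h2, encoding the broadly expressed LXRβ, lies on chromosome 7 from 44549616 to 44553951, minus strand. Control libraries had 1849, 1889 and 1910 and LPS libraries 2379, 2679 and 2977, while oxLDL libraries had 1821, 1859 and 1941 and oxLDL+LPS libraries 2302, 2603 and 2795. The groups with and without LPS did not overlap, and the oxLDL groups matched their partners closely. LPS gave 0.50 (standard error 0.10, adjusted p = 0.00389) without oxLDL and 0.45 (standard error 0.09, adjusted p = 0.00581) with it. With every library set to the same total, these became 0.02 (adjusted p = 0.823) and 0.06 (adjusted p = 0.548), so its call rested on the scaling. Nr1h3 kept its call under each scaling, and its share of LXR transcript per kb went from 40.8% in control to 47.9% in LPS PMφs.

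Of 16 listed LXR target genes, 13 were tested, and LPS raised 4 and lowered 4 (2 and 6 with the same total per library), beside 31.4% and 30.3% of all genes. Abca1 and Abcg1, cholesterol exporters, moved in opposite directions, Abca1 by 1.88 (standard error 0.24, adjusted p = 0.000389) and Abcg1 by -1.33 (standard error 0.12, adjusted p = 6.56e-05). Mertk, a receptor for apoptotic cells, rose by 1.31 (standard error 0.19, adjusted p = 0.000655). After oxLDL, LPS raised 3 and lowered 4 (2 and 6 with the same total per library), beside 28.2% and 26.3% of all genes, with Abca1 at 1.47, Mertk at 0.96 and Abcg1 at -1.61. The list median for LPS against control was 0.06, and -0.42 with the same total per library. OxLDL alone had 0 of 13 called by limma without the block, with 4 at an unadjusted p under 0.05, and 5 with it, Mylip (0.58) and Abcg1 (0.22) higher and Scd2 (-1.17), Scd1 (-1.08) and Fasn (-1.07) lower, where 1.8% of all genes were called higher and 2.92% lower. The 3 lower genes encode enzymes of fatty acid synthesis and desaturation, which SREBP also controls. In LPS-treated cells the blocked fit called 5 of 13 LXR targets, all lower, beside 8.74% of all genes, and without replicate numbers 1, 2 and 3 it called 3, 6 and 0.

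Among the NR4A genes, Nr4a3 showed the largest change. It lies on chromosome 4 from 48045153 to 48086447, plus strand, and its values were 6, 4 and 2 in control and 8, 9 and 4 in oxLDL libraries. LPS libraries held 121, 348 and 502, and oxLDL+LPS libraries 38, 170 and 96. Every LPS-treated library exceeded every library without LPS, and each oxLDL+LPS library was below the LPS library of its own replicate number although the groups overlapped. The mean was 80.9 times that of control for LPS and 14.5 times that of oxLDL for oxLDL+LPS. The fitted differences of log2(normalized count + 1) were 5.88 and 3.50. The gene passed the filter only through the LPS-treated libraries, so no test is read from these, and with pseudocounts of 0.5 and 10 the former difference was 6.05 and 4.37.

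OxLDL+LPS PMφs had a mean of 31.3% of the Nr4a3 value of LPS PMφs. The log2 difference of -1.68 had an adjusted p of 0.705 without the block and 0.00597 with it (blocked standard error 0.21), and 8.74% of all tested genes were called lower with the block. In replicate numbers 1, 2 and 3 it was -1.65, -1.03 and -2.37. The blocked adjusted p was 0.0733 without replicate number 1 and 0.348 without number 3, where the call was lost. The gene was called without number 2. The interaction of oxLDL and LPS for Nr4a3 was -2.38 (standard error 0.87) and was not called in either fit. It is the difference of the LPS effects with and without oxLDL. Because the gene passed the filter only through LPS-treated libraries, no test is read from this interaction either. Of the other receptor genes tested, none had an interaction with an unadjusted p under 0.05 in the fit without the block, beside 3.10% of all 13482 genes. With the block Rxra had one (0.0356). By limma, 0% of all genes had a called interaction in either fit.

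Nr4a1 lies on chromosome 15 from 101254269 to 101274795, plus strand. It held 20, 23 and 17 normalized counts in control, 22, 28 and 37 in oxLDL, 81, 43 and 59 in LPS and 78, 33 and 87 in oxLDL+LPS libraries. LPS libraries lay above control libraries without overlap, whereas oxLDL+LPS replicate 2 lay below oxLDL replicate 3. LPS raised it by 1.53 (standard error 0.29, adjusted p = 0.00315) without oxLDL and by 1.07 (standard error 0.41, adjusted p = 0.0645) with it. The latter call was lost with the same total per library (0.69, adjusted p = 0.181), with the same 75th percentile (0.86, adjusted p = 0.115) and without oxLDL+LPS replicate 1 or 3 or oxLDL replicate 1 or 2 (adjusted p of 0.143 to 0.184). OxLDL without LPS gave 0.49 (95% interval -0.15 to 1.14, adjusted p = 1), higher in 3 of 3 replicate numbers. The same direction in all 3 numbers was seen for 36.8% of all genes in that comparison.

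Nr4a2, on chromosome 2 from 57106830 to 57124003, minus strand, had the smallest LPS difference of the NR4A genes. Its values were 28, 38 and 23 in control, 23, 32 and 24 in oxLDL, 33, 53 and 47 in LPS and 21, 41 and 29 in oxLDL+LPS libraries. In each of the comparisons made, its groups overlapped. LPS against control gave 0.57 (standard error 0.29) with an adjusted p of 0.138 without the block and 0.0823 with it, and oxLDL+LPS against oxLDL gave 0.16 (standard error 0.32, adjusted p = 0.710). OxLDL+LPS against LPS gave -0.56 (95% interval -1.33 to 0.21, adjusted p = 0.755), lower in 3 of 3 replicate numbers, as 45.3% of all genes were the same way in all 3. In the NR4A total per kb, Nr4a3 went from 4.83% in control to 61.2% in LPS and 37.2% in oxLDL+LPS PMφs, with libraries from 39.3% to 74.7% and from 18.8% to 59.3%.

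The promoters of the NR4A genes are shown because these genes are known targets of CREB and because the letters of its site recur in all 3 of them. RefSeq gave 15 promoters for the 10 genes, all 10 of which matched by symbol. The 250 bases before the annotated start are printed 5′ to 3′ on the gene's own strand, from GRCm38.p6, at chr15:101266596-101266845 (plus) for Nr4a1, chr2:57124004-57124253 (minus) for Nr4a2 and chr4:48045055-48045304 (plus) for Nr4a3. RefSeq starts differ from the GENCODE M21 gene intervals given above for 2 of these genes, so the Nr4a1 window lies inside the interval of its gene, at a start within it, and the Nr4a3 window reaches into the interval of its gene. Capitals mark the CRE pentamer TGACG or its reverse complement CGTCA.
Nr4a1 promoter: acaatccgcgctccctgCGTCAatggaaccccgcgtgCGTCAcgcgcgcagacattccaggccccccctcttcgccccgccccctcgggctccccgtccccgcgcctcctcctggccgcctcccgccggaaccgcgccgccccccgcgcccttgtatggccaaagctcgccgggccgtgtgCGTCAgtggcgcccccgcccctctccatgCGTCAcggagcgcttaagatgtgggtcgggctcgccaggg
Nr4a2 promoter: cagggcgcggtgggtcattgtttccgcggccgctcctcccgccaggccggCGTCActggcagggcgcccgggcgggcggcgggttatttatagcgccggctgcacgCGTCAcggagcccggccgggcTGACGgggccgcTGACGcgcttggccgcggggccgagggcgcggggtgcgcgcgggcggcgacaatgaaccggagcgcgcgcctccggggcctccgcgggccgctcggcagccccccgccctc
Nr4a3 promoter: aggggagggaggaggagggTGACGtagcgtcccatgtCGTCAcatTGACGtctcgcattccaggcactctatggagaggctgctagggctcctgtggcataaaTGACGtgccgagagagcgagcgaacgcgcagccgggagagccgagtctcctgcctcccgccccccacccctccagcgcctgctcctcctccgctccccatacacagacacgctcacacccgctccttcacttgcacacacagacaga

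Each NR4A promoter held 4 of these pentamers. At least 4 were found in 0.137% of the 32851 RefSeq promoters, while 17.8% held at least 1. They began 233, 213, 69 and 40 bases before the start in Nr4a1, 200, 144, 123 and 111 in Nr4a2, and 231, 213, 205 and 147 in Nr4a3. The palindrome TGACGTCA was in none of the 15 promoters and in 1.55% of all promoters. Among the lipid receptors, Ppara and Rxrb each had a promoter with 1 pentamer and Pparg, Ppard, Rxra, Nr1h2 and Nr1h3 had none in this window. AAAGGTCA, the site that NR4A monomers bind, or its reverse complement, was in 1 promoter of Rxra, 50 bases before its start, and in 1.34% of all promoters. It contains the shared receptor hexamer AGGTCA, so these searches overlap. The motifs were chosen with the sequences in view, and a match is a match of letters only. Whether the pentamers bear on the LPS differences of the NR4A genes was not tested.

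**Figure D5:**
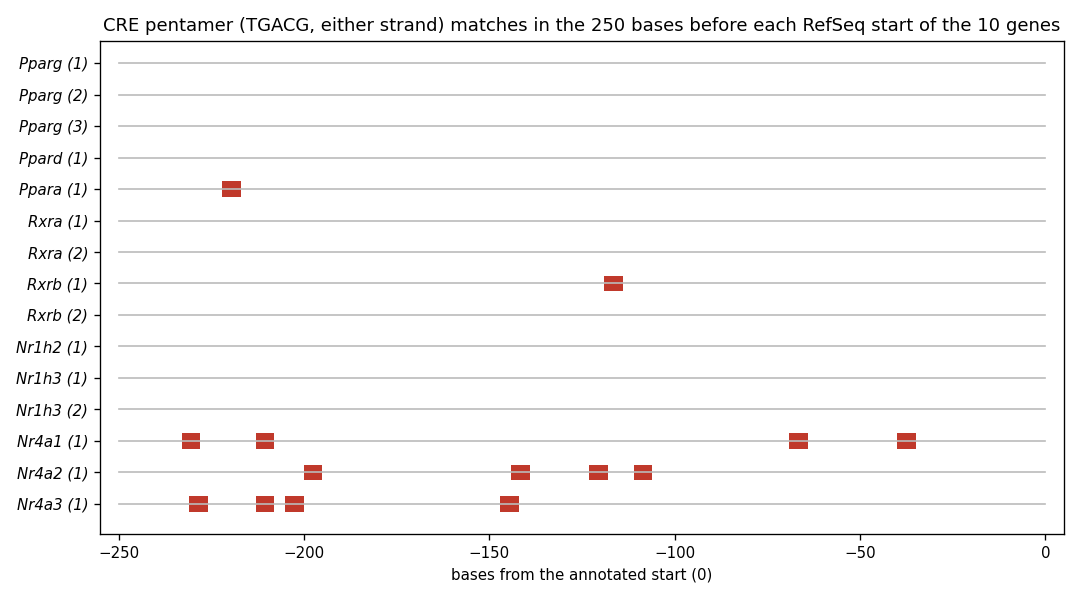
Matches to the CRE pentamer (red) in the 250 bases before the start (horizontal axis, bases from the start) of the 15 RefSeq promoters of the 10 receptor genes. The 3 NR4A promoters hold 4 each and the other 12 promoters hold at most 1.

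Of 10 listed factors, CREB family members, their CRTC coactivators, MEF2 factors and Srf, known to act upstream of the NR4A genes, LPS raised 3 and lowered 6 (1 and 8 with the same total per library), beside 31.4% and 30.3% of all genes. Mef2d fell by 1.22 (standard error 0.10, adjusted p = 3.17e-05), Crtc1 by 0.90 (standard error 0.13, adjusted p = 0.000593) and Atf1 by 0.80 (standard error 0.08, adjusted p = 9.82e-05). After oxLDL, 2 rose, Crem by 0.67 (standard error 0.14, adjusted p = 0.00746) among them, and 6 fell, beside 28.2% and 26.3% of all genes, while with the same total per library none rose past the threshold and 8 fell. OxLDL had 0 of the 10 called by limma without LPS and 0 with it, also in the blocked fits, with 0 and 0 at an unadjusted p under 0.05 in the unblocked ones.

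Receptors recruit corepressors and coactivators. Of 8 corepressor genes, LPS raised 3 and lowered 3 (1 and 6 with the same total per library), where 31.4% of all genes were called higher and 30.3% lower. Nrip1 rose by 1.46 (standard error 0.14, adjusted p = 9.47e-05). Of 9 coactivator genes, 3 rose and 3 fell (2 and 4 with the same total per library), against the same background. Ppargc1a, the PGC-1α coactivator of PPARγ, had 45, 85 and 67 normalized counts in control and 4, 6 and 4 in LPS libraries. It is among the 3 that fell but passed the filter only through libraries without LPS, so its log2 differences of -3.53 and, after oxLDL, -3.71 are given as a description. Ncoa1 and Med1 rose by 0.93 each. Ppargc1b, a relative of Ppargc1a, fell by 1.28 under LPS after oxLDL. OxLDL+LPS against LPS had 2 corepressors, Nrip1 (-0.86) and Tbl1x (-0.27), and 3 coactivators, Crebbp (-0.43), Ncoa3 (-0.32) and Med1 (-0.30), called lower with the block only, beside 8.74% of all genes, and 0 of either without replicate number 1 or 3.

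Of 17 listed genes that make or clear receptor ligands, 13 were tested in the LPS comparisons, with 4 higher and 5 lower in each (3 and 5 for LPS against control, and 3 and 7 after oxLDL, with the same total per library). Over all genes, 31.4% were higher and 30.3% lower for LPS against control, and 28.2% and 26.3% after oxLDL. Sult2b1 is counted among the lower genes in both comparisons. It had 16, 19 and 24 in control, 4, 4 and 8 in LPS, and 5, 5 and 11 in oxLDL+LPS libraries. It passed the filter only through libraries without LPS, so its calls are a description. Ptgs2, the inducible cyclooxygenase, went from 50, 60 and 69 normalized counts in control to 15114, 49362 and 61849 in LPS libraries. It rose by 9.22 (standard error 0.47, adjusted p = 3.41e-06) and Pla2g4a, which frees arachidonic acid, by 2.43 (adjusted p = 7.34e-07). Ch25h, an oxysterol-forming hydroxylase, is counted among the higher genes, but its 16, 17 and 2 in control libraries reached 10 in 2 of them, so it passed the filter through the LPS libraries and its log2 difference of 7.05 is a description. Hpgds, which makes the precursor of PPARγ-binding prostaglandins, fell by 2.46 (standard error 0.13, adjusted p = 3.54e-06), and Cyp27a1, another oxysterol-forming enzyme, by 1.12 (adjusted p = 0.000857). With the block, oxLDL+LPS against LPS had 6 of 12 lower, beside 8.74% of all genes, Ptgs2 by -1.89 and Ch25h by -1.77 among them, and without replicate numbers 1, 2 and 3 the count was 2, 6 and 0. Ch25h and Cyp27a1 are named for their roles and were chosen after their values were seen.

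Of 39 other nuclear receptor genes, 19 were tested for LPS against control, and 3 rose and 9 fell (1 and 12 with the same total per library), where 31.4% of all genes were called higher and 30.3% lower. Those that fell include Nr3c2 (16, 25 and 31 in control, 10, 8 and 7 in LPS libraries) and Thrb (24, 37 and 28, then 16, 19 and 7). These passed the filter only through control libraries, so their calls are a description. Nr3c1, the glucocorticoid receptor, rose by 1.17 (standard error 0.09, adjusted p = 3.34e-05), while Nr2f6 fell by 1.20 (standard error 0.13, adjusted p = 0.000138) and Nr1d2, the clock receptor REV-ERBβ, by 0.87 (standard error 0.14, adjusted p = 0.0012). Their median log2 fold change was -0.38 beside -0.00097 over all genes. After oxLDL, 20 were tested, and 3 rose and 8 fell (1 and 10 with the same total per library), beside 28.2% and 26.3% of all genes. Here Nr3c2 (6, 9 and 9 in oxLDL+LPS libraries), Vdr (11, 9 and 3) and Rarb (13, 22 and 7) were among those that fell. They passed the filter only through oxLDL libraries without LPS, so these calls too are a description. With the block only, oxLDL lowered 2 of 19, Rarb and Rora, beside 2.92% of all genes, and neither was called without replicate number 1 or 2.

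Genes whose pattern over the 12 libraries was nearest to that of a receptor were found by the root mean square difference of centred log2 values among 13482 genes, for the 4 tested receptor genes with an SD of at least 0.5 over the libraries. Nearest to Pparg was Gpr157 (0.159), with means of 1064 in control and 83.0 in LPS PMφs, then Tmem154 (0.194) and Tpcn1 (0.238). Rxra was nearest to Npc1 (0.0979), whose protein moves cholesterol out of lysosomes, Rnf166 (0.102) and Tmc6 (0.113). Nr4a1 was nearest to Asf1a (0.286), Cdc42bpg (0.289) and Arid5b (0.290), and Nr4a3 to Serpina3g (0.593), Vcan (0.605) and Hdc (0.609). Means of Serpina3g were 42.3 in control, 50.7 in oxLDL, 2109 in LPS and 987 in oxLDL+LPS PMφs, the order seen for Nr4a3. The 12 libraries share treatments and pools, so likeness is a description.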

How the data were processed

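RNA-seq signal was deposited by the authors as whole numbers for 43278 symbols in 12 libraries, after trimming (Trimmomatic 0.32), alignment to GRCm38 (STAR 2.5.1b), counting per GENCODE gene (featureCounts) and scaling. The signal keeps the spacing of counts divided by 1 factor per library (0.708 to 1.31) and rounded, so it is called the normalized count, and reads were not recovered. Symbols turned into dates (25) were kept as they stood among the 43278. Whether counting used the strand is not given in the sources used here.

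Groups were compared with limma 3.58.1 in R 4.3.3 (lmFit, eBayes with trend) on log2 of the normalized count plus 1, over genes of at least 10 in at least 3 libraries compared, with Benjamini-Hochberg adjustment over all genes and a threshold of 0.1. Each comparison used its 6 libraries, and the interaction all 12. The fit was tested on simulated data. P-values measure the spread between 3 libraries per group. Alternatives were the replicate block, other pseudocounts, filters and scalings, no variance trend, a common fit and left-out libraries. The numbers were taken to pair the libraries, since the methods describe pools divided among groups. Deviations from group means also correlated at 0.305 to 0.733 for every pair of groups over 11186 genes, which are not independent.

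Exon lengths came from GENCODE M21 (merged exons), not the authors' release, and promoters from RefSeq (GRCm38.p6). The order of different genes per kb depends on the length taken for each gene, and family shares were computed on merged exons only. The 10 genes and the lists were chosen with earlier results of these data known. Named genes were all 10, up to 3 called genes of smallest p per list and comparison, and the 3 nearest patterns, apart from those said to be chosen later and those named where a count is spelled out. Some genes of the lists are not reported here by name.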

Additional observations from a re-analysis of the deposited data

How the results depend on the processing

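No receptor gene that was called changed direction under an alternative that was run. Of 822 values for single genes under alternatives, 38 changed sign, and 0 of these were called before or after. The count of receptor genes called for oxLDL+LPS against LPS was 0 without the replicate block and 2 with it, and ran from 0 to 4 on leaving out libraries with the block kept or not. The block also added Ppard and Nr4a2 for LPS against control and changed no other receptor call. Called receptor genes numbered 6 to 9 over all alternatives for LPS against control and 5 to 7 for oxLDL+LPS against oxLDL. Both ranges count Nr4a3 wherever it was tested. The cause of the changes under the alternatives was not tested.

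On leaving out libraries, oxLDL+LPS against oxLDL ran from -0.15 to 0.16 for Ppard and from -0.075 to 0.39 for Nr4a2. OxLDL against control ran from -0.037 to 0.18 for Ppard, from -0.046 to 0.096 for Rxrb, from -0.033 to 0.013 for Nr1h2, from -0.065 to 0.049 for Nr1h3 and from -0.31 to 0.036 for Nr4a2. OxLDL+LPS against LPS ran from -0.11 to 0.20 for Pparg, from -0.14 to 0.019 for Nr1h2, from -0.28 to 0.061 for Nr1h3 and from -0.21 to 0.47 for Nr4a1. The interaction ran from -0.14 to 0.027 for Nr1h2 and from -0.22 to 0.078 for Nr1h3. With the same total per library, values that changed sign were Nr4a2 for oxLDL+LPS against oxLDL (-0.22, and -0.054 with the same 75th percentile), Nr1h2 for oxLDL+LPS against LPS (0.030) and for the interaction (0.040), and Nr1h3 for the interaction (0.010). Values under 10 per library, as for Ppara and for Nr4a3 without LPS, are too low to show small differences.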
